A study of Mus musculus with 32 samples.

Results

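The genes described here are 36 members of the type I interferon response, a fixed list of sensors, transcription factors and antiviral effectors that interferon switches on, read from the gene counts table by their symbols. The table held a row for 33 of the 36, among 39676 genes. Isg15, Stat2 and Cmpk2 are not analysed here. The list was read in whole tumors from a study that compared mesothelioma growing in the pleural space, where it invades, with the same cells growing under the skin. AB1 is a mouse mesothelioma line of BALB/c mice and AE17 one of C57BL/6 mice, each given to its own strain, so that model, strain and the number of cells inoculated (500000 AB1 or 1000000 AE17) cannot be told apart. The 4 groups were AB1 intrapleural (IPL), AB1 subcutaneous (SC, right flank), AE17 IPL and AE17 SC, with 8 mice in each and 32 in all. The mice were untreated females aged 8 to 10 weeks, and tumors were taken on day 10. The study's methods say that lungs and surrounding tissue were removed from the IPL tumors before RNA was made, whereas the labels speak of tumors harvested with surrounding tissue. Each model is 1 transplanted cell line, so the mice of a group share 1 tumor genotype.

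Type I interferons are secreted proteins that most cells can make after sensing foreign or misplaced nucleic acid. They bind the receptor chains IFNAR1 and IFNAR2, the kinases JAK1 and TYK2 are switched on, and the signal ends in ISGF3, a complex with IRF9 that binds the interferon-stimulated response element in the promoters of many genes. The products block viral replication, raise the sensing of nucleic acids, tag proteins with ISG15 or damp the response again, and in tumors they are made by malignant cells as well as by infiltrating leukocytes.

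Promoters are shown for 5 members because the comparisons below turn on them: Rsad2, Ifit3 and Ifit3b had the largest differences between the models, Bst2 had the highest level per length in every group, and Herc6 was called in both site comparisons, in opposite directions. Ifi44 was also called in both, in opposite directions, and its promoter is not shown. Each run is the 200 bases before the transcription start in RefSeq (GRCm38.p6), 5′ to 3′ on the strand of the gene, and capitals mark every match to GAAANNGAAA, the core of the interferon-stimulated response element, or to its reverse complement TTTCNNTTTC. Rsad2 lies at chr12:26456453-26456652 on the minus strand, Ifit3 at chr19:34583329-34583528 and Ifit3b at chr19:34607757-34607956 on the plus strand, Bst2 at chr8:71537473-71537672 on the minus strand and Herc6 at chr6:57580792-57580991 on the plus strand.
Rsad2: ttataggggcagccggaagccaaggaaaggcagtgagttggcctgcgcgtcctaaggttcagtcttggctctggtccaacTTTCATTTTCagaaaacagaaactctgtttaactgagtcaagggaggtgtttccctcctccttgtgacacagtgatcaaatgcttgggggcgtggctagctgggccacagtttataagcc
Ifit3: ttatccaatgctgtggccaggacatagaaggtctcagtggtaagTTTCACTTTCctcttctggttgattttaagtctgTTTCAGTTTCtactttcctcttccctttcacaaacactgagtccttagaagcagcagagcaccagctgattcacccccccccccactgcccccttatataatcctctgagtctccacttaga
Ifit3b: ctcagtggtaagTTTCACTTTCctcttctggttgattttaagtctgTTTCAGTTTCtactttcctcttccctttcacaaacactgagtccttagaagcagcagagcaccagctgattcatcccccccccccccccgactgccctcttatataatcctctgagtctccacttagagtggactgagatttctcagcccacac
Bst2: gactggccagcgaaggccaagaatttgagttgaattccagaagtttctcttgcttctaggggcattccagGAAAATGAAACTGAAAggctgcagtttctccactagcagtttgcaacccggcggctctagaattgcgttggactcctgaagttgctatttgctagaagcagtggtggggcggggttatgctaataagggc
Herc6: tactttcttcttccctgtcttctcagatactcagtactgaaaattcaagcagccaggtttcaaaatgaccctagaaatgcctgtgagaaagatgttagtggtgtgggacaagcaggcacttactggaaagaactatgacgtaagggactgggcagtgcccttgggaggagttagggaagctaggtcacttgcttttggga

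The Rsad2 run held 1 match, beginning 120 bases before the start, and the Ifit3, Ifit3b and Bst2 runs held 2 each, those of Bst2 overlapping. The Ifit3 and Ifit3b runs shared an identical stretch of 119 bases. The Herc6 run held no match, which says only that these letters are not in this window. Over windows from 250 bases before to 50 after the start, 12 of the 28 windows of members held the element (42.9%), or 11 of the 23 members with a window, against 3.44% of 32851 windows of all genes. The gamma-activated site TTCNNNGAA, which reads the same on both strands, was in 6 of the 28 member windows (21.4%) and in 8.3% of all windows. In 1 case a match of one motif overlapped a match of the other. Dhx58, Zbp1, Oas2, Mx1, Mx2, Usp18, Parp9, Parp14, Rtp4 and Ifi27l2a had no window in the table used.

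The libraries were polyA RNA, sequenced as 50-base single-end reads, and held 15432258 to 20649645 counted reads. Levels are given in CPM, the count scaled to a common depth by the library's total times its TMM normalization factor. The fewest reads of any member in any library were 101, of Mx2 in an AB1 IPL library. No pair of libraries of a group agreed within sampling noise. The sequencing lane, which the headers of the counts table name, was tied to the groups: all 8 AB1 IPL libraries and 2 AB1 SC libraries (replicates 1 and 2) were in lane 3, the other 6 AB1 SC and 5 AE17 IPL libraries in lane 2, and 3 AE17 IPL and all 8 AE17 SC libraries in lane 1. Of the mesothelial markers, Msln is not analysed here, and the summed CPM of Wt1, Upk3b, Krt19 and Lrrn4 ran from 0.381 to 77.1 in AB1 IPL (median 1.15), 0.523 to 2.92 in AB1 SC (median 1.03), 1.69 to 21.4 in AE17 IPL (median 10.6) and 0.305 to 10.6 in AE17 SC tumors (median 2.98). The tumors are called here by the lines they grew from.

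All 33 members were detected in every library, and 29 of them had the same order of group medians: AE17 IPL highest, then AE17 SC, then AB1 SC, and AB1 IPL lowest. Averaged over the 33 genes as log2 CPM, the level was 5.66 ± 0.32 (SD, n = 8) in AB1 IPL, 6.23 ± 0.32 in AB1 SC, 7.23 ± 0.54 in AE17 SC and 7.79 ± 0.13 in AE17 IPL tumors. The ranges of mice were 5.26 to 6.09, 5.61 to 6.52, 6.22 to 7.72 and 7.60 to 7.94 in that order, so neighbouring groups in the order overlapped. AB1 IPL and AE17 SC tumors did not overlap, and neither did AB1 SC and AE17 IPL tumors. Zbp1, Isg20 and Bst2 had a higher median in AB1 SC than in AE17 SC tumors, and Pml alone had a higher median in AB1 IPL than in AB1 SC tumors.

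**Figure D1:**
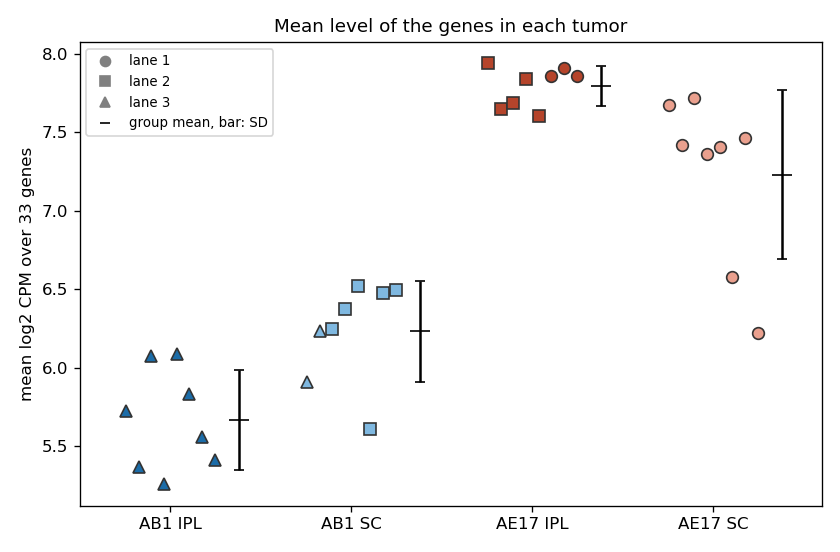
Mean log2 CPM of the 33 measured members (vertical axis) in each of the 32 tumors (points), by group (horizontal axis). Marker shapes stand for the sequencing lane, and bars give the group mean and SD. The AE17 IPL tumors sit close together between 7.60 and 7.94, while the AE17 SC tumors spread from 6.22 to 7.72.

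Per kilobase of exon, the median level of Bst2 (tetherin, which holds budding virions at the cell surface) was the highest of the members in every group, with 234 CPM per kb in AB1 IPL, 339.7 in AB1 SC, 454.7 in AE17 IPL and 333 in AE17 SC tumors. Ifit3 was second in both AE17 groups (302 and 243 CPM per kb in IPL and SC) but eleventh in AB1 IPL and eighth in AB1 SC tumors (20.8 and 36 CPM per kb). Rsad2 was sixth in AE17 IPL at 123 CPM per kb and 31st of 33 in both AB1 groups. Herc6 was the lowest member in AE17 IPL tumors, at 13 CPM per kb.

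In the AB1 model, 21 of the 33 interferon response genes were lower in pleural than in subcutaneous tumors, 0 were higher and 12 did not pass (edgeR quasi-likelihood test, adjusted p under 0.05), against 10.7% of the 14645 genes tested that were lower and 12.3% that were higher. The log2 fold change was below 0 for 32 of the 33, with a median of -0.56, while the median over all genes was 0.00. At an unadjusted p under 0.05, 28 members were lower and 0 higher, against 16.3% and 18.5% of all genes. DESeq2 and limma-voom each called 24 lower and 0 higher, and edgeR with the sequencing lane as a factor called 0, as given below. Over all genes, DESeq2 called 4.83% lower and 6.6% higher, and limma-voom 16.6% and 15%. The ranges of the 2 groups overlapped for every member. In a whole tumor, fewer cells of a type and less RNA per cell cannot be told apart.

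The 4 sensors, which detect foreign nucleic acid in the cytoplasm, were all lower in AB1 IPL tumors. Zbp1, a receptor for Z-form nucleic acid (GRCm38 chr2:173206612-173218923), had its lowest, median and highest levels at 106, 181 and 229 CPM in IPL tumors and 224, 334 and 386 CPM in SC tumors. Every SC tumor but replicate 6 lay above all the IPL tumors, and replicate 6 lay just under the highest of them. The log2 fold change was -0.88 ± 0.15 (SE, adjusted p = 0.000576), the smallest adjusted p of the members. Ddx58, which encodes the RNA helicase RIG-I, ran from 60.8 to 109 CPM (median 81.5) in IPL and from 90.3 to 131 CPM (median 116) in SC tumors (-0.50 ± 0.12, adjusted p = 0.00439). Its groups overlapped where the highest IPL tumors met the lowest SC ones. Ifih1, encoding the related sensor MDA5, and Dhx58, encoding their regulator LGP2, changed by -0.71 ± 0.21 and -0.51 ± 0.16.

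Of the transcription factors, Irf7, the factor that amplifies the response by inducing interferon-alpha genes (chr7:141262706-141266481), was at 91.1, 117 and 140.1 CPM (lowest, median, highest) in IPL and 97.5, 179 and 194 CPM in SC tumors. SC replicates 6 and 1 were the low ones, within the range of the IPL tumors, and the other 6 SC tumors lay above every IPL tumor. Irf7 fell by 0.56 on the log2 scale (SE 0.13, adjusted p = 0.00553). Irf9, the DNA-binding subunit of ISGF3, ran from 66.9 to 107 CPM (median 91.8) in IPL and from 87.3 to 115 CPM (median 99.8) in SC tumors, and its difference of -0.16 ± 0.09 did not pass the test (adjusted p = 0.231).

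The IFIT proteins bind foreign RNA and block its translation, and 2 of the 4 IFIT genes were lower in AB1 IPL tumors: Ifit1 (-0.74 ± 0.22, adjusted p = 0.0225) and Ifit3 (-0.66 ± 0.23, adjusted p = 0.047). Ifit2 and Ifit3b were at -0.72 ± 0.26 and -0.56 ± 0.25 and did not pass. Ifit3 and Ifit3b share 51.2% and 45% of their 50-base windows with another transcript, mainly each other's, so the split of reads between them is uncertain. The same holds for Oas1a, 57.6% of whose windows occur in another gene, mainly Oas1g.

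The OAS enzymes make short oligoadenylates that activate RNase L, and 3 of the 5 OAS-family genes were lower in AB1 IPL tumors. Oasl2 was the furthest from 0 of the family, with 104, 147 and 205 CPM (lowest, median, highest) in IPL and 142, 276 and 315 CPM in SC tumors (-0.84 ± 0.17, adjusted p = 0.00215). The median SC tumor lay above every IPL tumor, and SC replicate 6 lay near the IPL median. Oas1a was the closest to 0, at -0.32 ± 0.13 (adjusted p = 0.0913). Mx1, a gene of the dynamin-like GTPase family, ran from 10.4 to 25.6 CPM (median 18.1) in IPL and from 19.5 to 42.4 CPM (median 35) in SC tumors (-0.98 ± 0.21, adjusted p = 0.00232). Its lowest SC tumor was replicate 1 and lay at about the IPL median. Its relative Mx2 was at -0.54 ± 0.22 and did not pass (adjusted p = 0.0847).

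Herc6, the ligase that attaches ISG15 to proteins in the mouse, varied most among the AB1 IPL tumors: its lowest, median and highest levels were 11.7, 35.7 and 62 CPM there and 43.9, 71.8 and 82.8 CPM in SC tumors (-0.97 ± 0.25, adjusted p = 0.0101). The IPL tumors of replicates 4 and 5 formed the low and high ends, and the SC tumors other than replicate 6 were close together. About 13.7% of the exon bases of Herc6 overlap another annotated gene, and the strand setting of the counting is not given in the sources used here. Usp18, which removes ISG15 and damps receptor signalling, was at -0.43 ± 0.15 (adjusted p = 0.051). Rsad2 (viperin, which makes a nucleotide that stops viral RNA synthesis) was at -0.55 ± 0.28, adjusted p = 0.181.

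PARP9 and DTX3L form an ADP-ribosylating ubiquitin ligase complex, PARP14 is a related ADP-ribosyltransferase, and all 3 genes were lower in AB1 IPL tumors. Parp9 ran from 60 to 126 CPM (median 97.1) in IPL and from 116 to 175 CPM (median 159.7) in SC tumors (-0.70 ± 0.14, adjusted p = 0.00138). Dtx3l ran from 66.4 to 118 CPM (median 87.3) and from 104 to 157 CPM (median 137) (-0.63 ± 0.13, adjusted p = 0.00182). The pair lie head to head on chromosome 16 and overlap over 9.4% and 8% of their exon bases, so reads there could be counted for either. Parp14 ran from 56.5 to 211 CPM (median 140.3) and from 175 to 315 CPM (median 264) (-0.90 ± 0.21, adjusted p = 0.00478). In all 3 the lowest IPL tumor was replicate 4, the lowest SC tumor was replicate 6, and the groups met only at their edges.

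Of the remaining members, Rtp4, a receptor-transporting protein, ran from 31.8 to 59.4 CPM (median 45.7) in IPL and from 38.9 to 83.6 CPM (median 69.2) in SC tumors (-0.61 ± 0.15, adjusted p = 0.00856). Xaf1, a pro-apoptotic partner of XIAP, ran from 37 to 75.8 CPM (median 57.2) and from 60.7 to 112 CPM (median 98.2) (-0.76 ± 0.17, adjusted p = 0.00408). Ifi35 ran from 35.5 to 61.8 CPM (median 51.3) and from 51.9 to 74.3 CPM (median 63.5) (-0.37 ± 0.10, adjusted p = 0.0165). Each of these overlapped through the lowest SC tumors, with replicate 6 the lowest for all 3. Ifi44 had the lowest fold change of the 33, with 20.6, 58.4 and 102 CPM (lowest, median, highest) in IPL and 50.3, 124 and 157 CPM in SC tumors (-1.02 ± 0.29, adjusted p = 0.017). Bst2 and Trim30a were also lower, at -0.39 and -0.63. At the other end, Pml, which scaffolds nuclear bodies, was at 0.07 ± 0.08 (adjusted p = 0.556), and the interferon-inducible Ifi27l2a was at 0.00 ± 0.20. Eif2ak2 (the RNA-activated kinase PKR) and the exonuclease gene Isg20 were at -0.43 and -0.28 and did not pass the test.

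**Figure D2:**
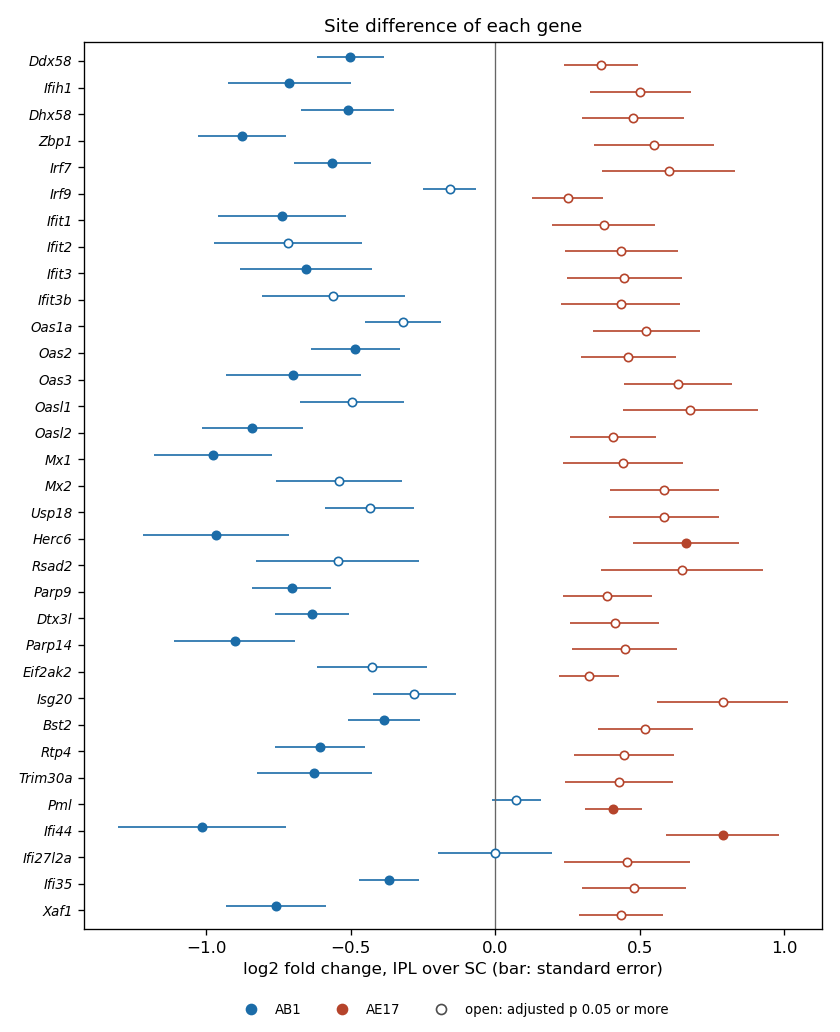
Log2 fold change of IPL over SC tumors (horizontal axis) for each of the 33 members (rows), in AB1 and in AE17; points are edgeR estimates, bars their standard errors, and filled points passed an adjusted p of 0.05. In AB1 the points lie from -1.02 to 0.07, and in AE17 from 0.25 to 0.79.

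In the AE17 model the same genes had fold changes above 0, and few passed the test. Of the 33 members, 3 were higher in AE17 IPL than in AE17 SC tumors and 0 were lower, against 2.60% of the 14668 genes tested that were higher and 3.13% that were lower. All 33 log2 fold changes were above 0, from 0.25 (Irf9) to 0.79 (Isg20), with a median of 0.46 against 0.00 over all genes. At an unadjusted p under 0.05, 30 members were higher and 0 lower, against 13.2% and 12% of all genes. The count of called members depended on the tool: DESeq2 called 12 higher and limma-voom with sample weights 28, and both called 0 lower. The share of all genes called also moved with the tool: 2.21% higher and 2.25% lower in DESeq2, and 14.1% and 12.9% in limma-voom. The count of members also depended on single mice in edgeR: it was 0 without IPL replicate 4, 7 or 8 or SC replicate 5, 1 without IPL replicate 1 or SC replicate 7, 5 without IPL replicate 5, 14 without SC replicate 3 and 15 without SC replicate 1. In those fits the share of all genes called higher ran from 0.806% without IPL replicate 4 to 6.94% without SC replicate 1. For every member the ranges of the 2 groups overlapped.

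The 3 that passed were Ifi44, Herc6 and Pml, the last chosen for naming after its values were seen. Ifi44 had lowest, median and highest levels of 169, 205 and 233 CPM in AE17 IPL and 52.3, 131 and 178 CPM in AE17 SC tumors (0.79 ± 0.20, adjusted p = 0.0302). Herc6 had 102, 121 and 141 CPM in IPL and 34.4, 82.6 and 119 CPM in SC tumors (0.66 ± 0.18, adjusted p = 0.0464). Pml had 137, 167 and 186 CPM in IPL and 87.7, 125 and 152 CPM in SC tumors (0.41 ± 0.10, adjusted p = 0.0269). In each, SC replicate 8 was the lowest of the AE17 tumors. SC replicate 1 alone reached into the IPL range for Ifi44 and Herc6, and the 2 highest SC tumors did for Pml. The 3 did not stand alone in size: Isg20 was at 0.79 ± 0.23, adjusted p = 0.0519, Oas3 at 0.63 ± 0.19, adjusted p = 0.0548, and Bst2 at 0.52 ± 0.16, adjusted p = 0.0696.

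The sensor Zbp1 ran from 245 to 437 CPM (median 358) in AE17 IPL and from 102 to 388 CPM (median 240.3) in AE17 SC tumors (0.55 ± 0.21, adjusted p = 0.113), and Ddx58 ran from 336 to 429 CPM (median 397) and from 186 to 368 CPM (median 329) (0.36 ± 0.13, adjusted p = 0.0921). Irf7 was at 291, 406 and 435 CPM (lowest, median, highest) in IPL and 89.1, 266 and 404 CPM in SC tumors (0.60 ± 0.23, adjusted p = 0.119). The low ends came from SC replicate 8, and the highest SC tumors lay within the IPL range. Irf9 ran from 110.0 to 149 CPM (median 134) in IPL and from 68.4 to 149 CPM (median 117) in SC tumors (0.25 ± 0.12, adjusted p = 0.216), where the highest tumor of all was an SC one. Mx1 ran from 151 to 238 CPM (median 207) and from 58.6 to 216 CPM (median 171) (0.44 ± 0.21, adjusted p = 0.197), and Oasl2 ran from 494 to 659 CPM (median 584) and from 231 to 550.3 CPM (median 462) (0.41 ± 0.15, adjusted p = 0.105). In both, the AE17 SC tumors reached further down than the AE17 IPL tumors. The highest AE17 SC tumor lay above the IPL median for Mx1 and below it for Oasl2.

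Parp9 ran from 253 to 316 CPM (median 279.7) in AE17 IPL and from 112 to 293 CPM (median 232) in AE17 SC tumors (0.39 ± 0.15, adjusted p = 0.129), Dtx3l ran from 245 to 313 CPM (median 281) and from 110.2 to 276 CPM (median 219) (0.41 ± 0.15, adjusted p = 0.109), and Parp14 ran from 432 to 555 CPM (median 489.9) and from 159 to 504 CPM (median 389.7) (0.45 ± 0.18, adjusted p = 0.138). EdgeR and DESeq2 called none of the 3, and limma-voom called all 3 higher in AE17 IPL tumors. Rtp4 ran from 159 to 213 CPM (median 183) in IPL and from 64.4 to 188 CPM (median 143) in SC tumors (0.45 ± 0.17, adjusted p = 0.121), Ifi35 ran from 96.4 to 128 CPM (median 115) and from 38.3 to 117 CPM (median 83) (0.48 ± 0.18, adjusted p = 0.111), and Xaf1 ran from 127 to 166 CPM (median 151) and from 61.8 to 154 CPM (median 117) (0.43 ± 0.15, adjusted p = 0.0815). These 6 genes had medians that were higher in IPL tumors, by less than the range of the SC tumors.

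**Figure D3:**
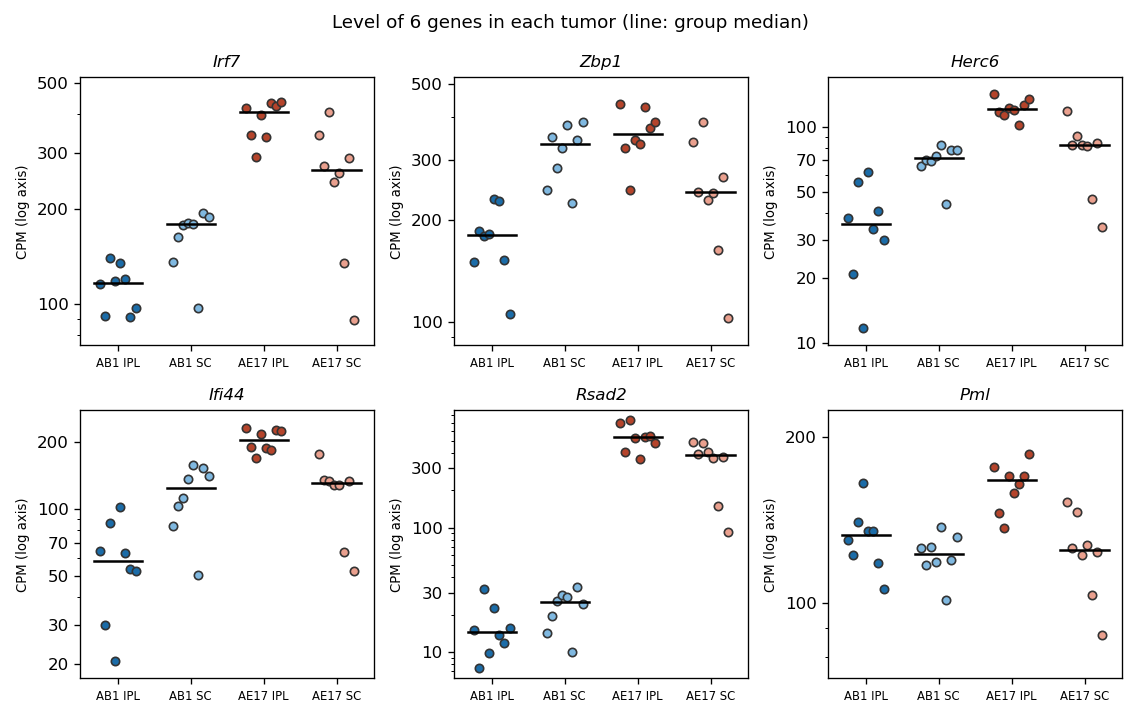
Level in CPM (vertical axis, log scale) of Irf7, Zbp1, Herc6, Ifi44, Rsad2 and Pml in each tumor (points) of the 4 groups (horizontal axis); lines mark the group medians. Rsad2 separates the models, with all AB1 tumors at or below 33.2 CPM and all AE17 tumors at or above 93.0 CPM, while Pml runs from 87.7 to 186 CPM over all tumors.

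The difference between IPL and SC tumors differed between the models for most members. In a fit over all 32 tumors, the site effect was higher in AE17 than in AB1 for 30 of the 33 members and lower for 0, against 8.62% of the 15681 genes tested that were higher and 11.9% that were lower. The difference was above 0 for all 33, with a median of 1.07 on the log2 scale against -0.02 over all genes, and at an unadjusted p under 0.05 it was 32 higher and 0 lower, against 14.3% and 18.5% of all genes. DESeq2 gave 30 higher and 0 lower, and limma-voom 32 higher and 0 lower. Their shares over all genes were 3.81% higher and 5.42% lower in DESeq2, and 13.7% and 15.7% in limma-voom. The 3 members that did not pass were Irf9 (0.39 ± 0.16, adjusted p = 0.077), Ifi27l2a (0.44 ± 0.31, adjusted p = 0.335) and Pml (0.32 ± 0.13, adjusted p = 0.0852). The largest differences were those of Ifi44 (1.78 ± 0.37, adjusted p = 0.00117), Herc6 (1.61 ± 0.33, adjusted p = 0.00112) and Zbp1 (1.41 ± 0.27, adjusted p = 0.000581), each of which had a fold change below 0 in AB1 and above 0 in AE17. The members' values in the 2 comparisons are drawn side by side in the plot of site effects. Irf7 differed by 1.15 ± 0.28, adjusted p = 0.00408.

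How many of these site effects passed the test depended on whether the sequencing lane or leukocyte markers were in the fit. With lane as a factor in edgeR, 0 members were called in AB1, in AE17 or in the difference between the models, at medians of -0.38, 0.54 and 0.94, with 31 of 33 members below 0 in AB1 and all 33 above 0 in the other two. Of all genes, that fit called 1.91% lower in AB1, 0% higher in AE17 and 0.37% with a higher site effect in AE17. At an unadjusted p under 0.05 this fit had 10 members lower in AB1, 22 higher in AE17 and 23 with a higher site effect in AE17, against 8%, 7.91% and 6.72% of all genes in the same directions. Within 1 lane (8 AB1 IPL against 2 AB1 SC tumors in lane 3, 3 AE17 IPL against 8 AE17 SC tumors in lane 1), 0 members were called in either model, at medians of -0.43 and 0.54, with 9 lower in AB1 and 17 higher in AE17 at an unadjusted p under 0.05, against 6.9% and 6.87% of all genes. In lane 2 the AB1 tumors were all SC and the AE17 tumors all IPL. The lane-factor site effects, and their difference between the models, therefore rest on these same within-lane contrasts and are not a separate check. Of the 2 AB1 SC tumors in lane 3, replicate 1 was, with replicate 6, the lowest pair of its group for 31 members. The leukocyte markers Ptprc, Itgb2, Coro1a and Laptm5 summed to 420.5 to 785 CPM (median 629) in AB1 IPL and 786 to 1249 CPM (median 928) in AB1 SC tumors, which did not overlap, and 3 of the 4 were lower in AB1 IPL tumors. In AE17 they summed to 829 to 1252 CPM (median 998) in IPL and 519 to 1305 CPM (median 988) in SC tumors, and 0 of the 4 were called by edgeR, DESeq2 or limma-voom or had an unadjusted p under 0.05. With the log2 of that sum as a covariate, added after the data were seen, 0 members were lower in AB1 (28 of 33 below 0, median -0.32), 25 were higher in AE17 (median 0.41), and 0 differed between the models (30 of 33 above 0, median 0.47), against 3.64%, 4.87% and 2.23% of all genes in those directions. At an unadjusted p under 0.05, that fit had 0 lower and 1 higher in AB1, against 12.7% and 17.6% of all genes, 33 higher in AE17, against 13.8%, and 11 with a higher site effect in AE17, against 10.3%. In AB1 the marker sums of the sites did not overlap, so that fit could not cleanly separate leukocyte level from site. The part of the leukocyte content in these differences was not tested.

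**Figure D4:**
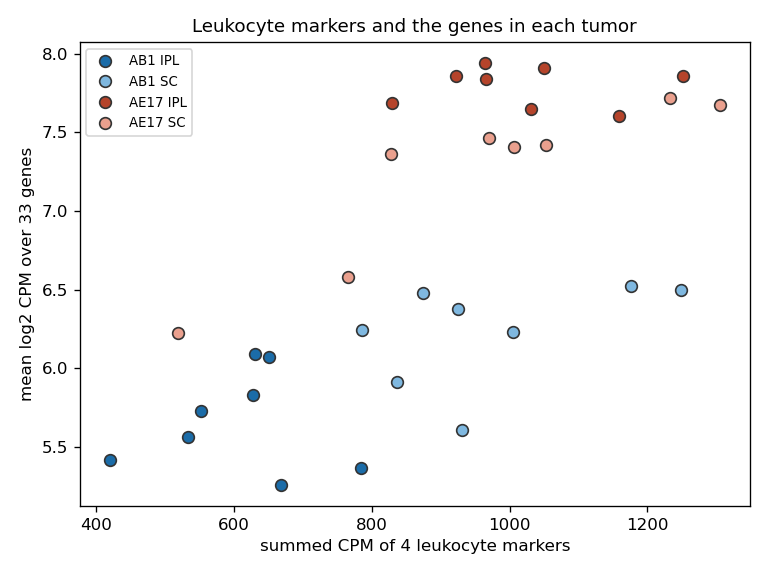
Mean log2 CPM of the 33 members (vertical axis) against the summed level of 4 leukocyte markers in CPM (horizontal axis) in each of the 32 tumors, coloured by group. The AB1 IPL tumors lie low on both axes, between 420 and 785 CPM of markers, and the AE17 SC tumor with the lowest marker level, replicate 8 at 519 CPM, is also the lowest AE17 tumor for the members. The AB1 SC tumor lowest for the members, replicate 6, lies at 931 CPM of markers.

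Markers of single cell types moved with site as well. In AB1 IPL tumors, 7 of 7 T cell, 4 of 4 NK cell, 4 of 6 macrophage and monocyte and 2 of 5 dendritic cell markers were lower, with 0 higher in each list. Beside the edgeR counts in this paragraph, 10.7% of all genes were lower and 12.3% higher in AB1 IPL tumors. The shares in AE17 IPL tumors were 3.13% lower and 2.60% higher. The T cell markers summed to 17.3 to 89.6 CPM (median 53.9) in AB1 IPL and 91.6 to 169 CPM (median 119) in AB1 SC tumors, and the NK cell markers to 11.4 to 25.4 CPM (median 16.2) and 39.5 to 93.4 CPM (median 68.6). For both lists the AB1 groups did not overlap. Of the markers of plasmacytoid dendritic cells, the leukocytes that make the most type I interferon, 2 of 5 tested were lower and 1 higher. The 5 skeletal muscle markers were all higher in AB1 IPL tumors (96.7 to 3634 CPM (median 1567) against 50.9 to 333 CPM (median 214)), as were 2 of 3 neutrophil, 3 of 4 B cell, 2 of 3 fibroblast, 3 of 5 endothelial and 2 of 4 adipocyte markers tested. These counts depended on the tool: limma-voom called 0 neutrophil markers higher and 1 lower, and 1 B cell, 3 fibroblast, 2 endothelial and 1 adipocyte marker higher, where DESeq2 called 3, 4, 3, 4 and 4 higher in the same order. Over all genes, limma-voom called 15% higher and 16.6% lower in AB1, and 14.1% and 12.9% in AE17. DESeq2 called 6.6% higher and 4.83% lower in AB1, and 2.21% and 2.25% in AE17. The neutrophil markers summed to between 1.69 and 369 CPM in AB1 IPL and between 5.46 and 16.5 CPM in AB1 SC tumors. Of 2 heart muscle markers tested, 1 was higher (Myl4, 2.97) and 1 lower (Tnni3, -0.88). With lane as a factor, 4 NK cell, 2 plasmacytoid dendritic cell, 1 T cell and 1 dendritic cell marker were lower in AB1 IPL tumors, and 0 markers of the other lists, the muscle markers included, were called. That fit called 1.91% of all genes lower and 0.731% higher in AB1. In AE17 IPL tumors, 2 of 4 NK cell and 1 of 5 dendritic cell markers were lower, 2 of 3 B cell and 1 of 2 heart muscle markers were higher, and 0 of 7 T cell and 0 of 5 skeletal muscle markers were called by edgeR. At an unadjusted p under 0.05, 2 T cell markers were higher and 0 lower, DESeq2 called 2 higher and limma-voom 4 higher and 1 lower, and the muscle markers had 0 in each. At that unadjusted threshold 13.2% of all genes were higher and 12% lower in AE17. The T cell markers summed to 73.8 to 181 CPM (median 136) in AE17 IPL and 17.2 to 183 CPM (median 58.8) in AE17 SC tumors. Lung epithelium, keratinocyte and mesothelial markers had 1 gene each tested by edgeR and 0 called in either model. In AE17, 1 keratinocyte marker was lower at an unadjusted p under 0.05. Limma-voom called 1 keratinocyte marker lower and 1 mesothelial marker higher in AE17, and DESeq2, which tested genes below the filter, called 1 mesothelial marker higher in AB1 and 3 in AE17. The part of these cell types in the members' differences was not tested.

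At the same site, all 33 members in the pleural space and 24 of 33 under the skin were higher in AE17 than in AB1 tumors. The count in the pleural space stood against 31.8% of the 15681 genes tested that were higher and 31.6% that were lower, with a median log2 fold change of 1.83. Under the skin 0 members were lower and 9 did not pass, against 29.7% higher and 28.6% lower among all genes, with a median of 0.80, and the medians over all genes were 0.00 in both comparisons. The counts were the same at an unadjusted p under 0.05, against 33.4% of all genes higher in the pleural space and 31.6% under the skin, and limma-voom called 1 member lower under the skin where DESeq2 called 0. Over all genes, limma-voom called 35% and DESeq2 12.6% lower under the skin. Every AE17 tumor lay above every AB1 tumor for 31 members in the pleural space, against 14.3% of all genes, and for 10 members under the skin, against 16.1%. Reads of both models were mapped to the same reference, and BALB/c differs from it in sequence. With lane as a factor, 28 members were higher in the pleural space and 14 under the skin, against 15.5% and 18.2% of all genes.

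Cell type markers also differed between the models. In the pleural space, 4 of 4 leukocyte, 5 of 6 macrophage and monocyte and 6 of 7 T cell markers were higher in AE17 than in AB1 tumors, and 5 of 5 skeletal muscle and 2 of 4 neutrophil markers were lower, against the 31.8% of all genes higher and 31.6% lower. Limma-voom called 0 of these neutrophil markers lower and 1 higher. The summed leukocyte markers of AE17 IPL and AB1 IPL tumors, given above, did not overlap. When lane was a factor in edgeR, 0 leukocyte, macrophage, T cell or skeletal muscle markers were called between the IPL groups. Under the skin, 3 of 4 NK cell and 2 of 7 T cell markers were lower in AE17 tumors, and 4 of 5 endothelial and 2 of 3 fibroblast markers were higher, against 28.6% of all genes lower and 29.7% higher. The T cell count was at that share. There, 0 of 4 leukocyte markers were called by edgeR or DESeq2 or had an unadjusted p under 0.05, and limma-voom called 1 higher and 1 lower. The part of these cell types in the model differences was not tested.

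Rsad2 had the largest difference between the models at both sites. Its lowest, median and highest levels were 7.38, 14.5 and 32 CPM in AB1 IPL, 10.1, 25.1 and 33.2 CPM in AB1 SC, 356, 534 and 735 CPM in AE17 IPL and 93, 383 and 493 CPM in AE17 SC tumors. The models did not overlap at either site. The log2 difference was 5.09 ± 0.35, adjusted p = 5.42e-14 in the pleural space and 3.92 ± 0.33, adjusted p = 7.28e-12 under the skin. The Ifit genes lie in 1 cluster, from Ifit2 at chr19:34550694-34576419 to Ifit1 at chr19:34640871-34650009 (GRCm38). In IPL tumors Ifit3 differed by 3.73 ± 0.25, Ifit3b by 3.65 ± 0.26, Ifit1 by 3.24 ± 0.23 and Ifit2 by 2.99 ± 0.26, with no overlap between the models. All 4 were also higher in AE17 SC than in AB1 SC tumors, by 1.86 (Ifit2) to 2.67 (Ifit3b), with no overlap.

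**Figure D5:**
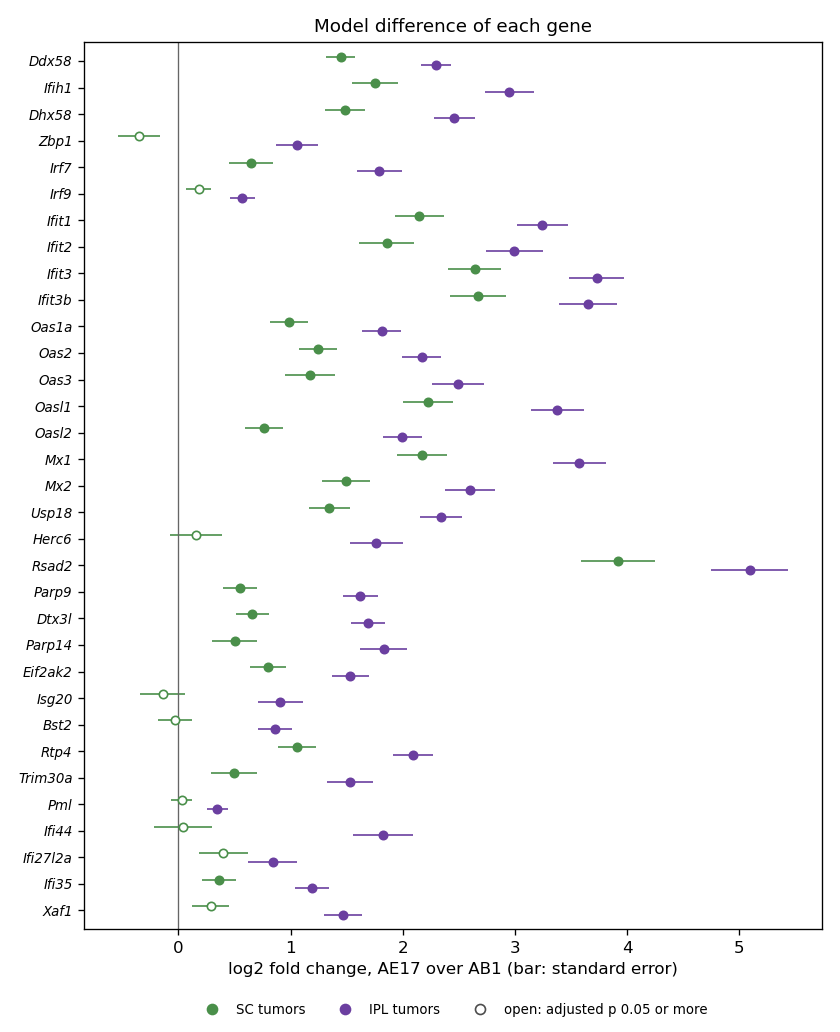
Log2 fold change of AE17 over AB1 tumors (horizontal axis) for each of the 33 members (rows), in IPL and in SC tumors; points are edgeR estimates, bars their standard errors, and filled points passed an adjusted p of 0.05. The IPL values run from 0.35 (Pml) to 5.09 (Rsad2) and the SC values from -0.35 (Zbp1) to 3.92 (Rsad2).

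Mx1 differed by 3.57 ± 0.24, adjusted p = 2.18e-14 in IPL and 2.17 ± 0.22, adjusted p = 5.53e-10 in SC tumors, and Ddx58 by 2.29 ± 0.13, adjusted p = 7.3e-16 and 1.45 ± 0.13, adjusted p = 2.58e-11, with no overlap at either site. Oasl2 differed by 2.00 ± 0.18 in IPL and 0.77 ± 0.17 in SC tumors, Rtp4 by 2.09 ± 0.18 and 1.06 ± 0.17, Irf7 by 1.79 ± 0.20 and 0.64 ± 0.20, and Parp14 by 1.83 ± 0.21 and 0.50 ± 0.20, all passing the test. The 3 members with an SC value below 0 were Zbp1 (-0.35 ± 0.19, adjusted p = 0.108), Isg20 (-0.14 ± 0.20, adjusted p = 0.56) and Bst2 (-0.03 ± 0.15, adjusted p = 0.883). Ifi44 and Herc6 were also close to 0 under the skin, at 0.04 ± 0.26 and 0.16 ± 0.23, and were higher in AE17 in the pleural space, at 1.82 ± 0.27 and 1.76 ± 0.24. Pml (0.35 ± 0.09, adjusted p = 0.00171) and Irf9 (0.57 ± 0.11, adjusted p = 4.68e-05) had the lowest IPL values.

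In the SC groups, the same mice were low for nearly all members. The median SD of the members on the log2 scale was 0.41 in AB1 IPL, 0.33 in AB1 SC, 0.17 in AE17 IPL and 0.57 in AE17 SC tumors, where the median over all genes tested was 0.31, 0.17, 0.20 and 0.24. In AE17 SC tumors, replicates 6 and 8 were the lowest pair for all 33 members, with replicate 8 lowest for 30. In AB1 SC tumors, replicate 6 was the lowest for 32 and replicates 1 and 6 were the lowest pair for 31. How often the same tumors were the lowest over all genes was not counted. In AE17 SC tumors replicates 1 and 3 were the highest pair for 23 members, and in AB1 IPL tumors replicates 3 and 5 for 22. Elsewhere the mice at the ends varied more: the commonest lowest pair covered 15 members in AB1 IPL and 12 in AE17 IPL tumors, and the commonest highest pair 13 in AB1 SC and 6 in AE17 IPL tumors. AE17 SC replicates 8 and 6 also had the lowest leukocyte marker sums of their group, at 519 and 766 CPM. This was not so in AB1: AB1 SC replicates 6 and 1 had marker sums of 931 and 836 CPM, where the lowest was replicate 3 at 786 CPM, and AB1 IPL replicates 4 and 2, the lowest for the mean of the members, had the highest marker sums of their group, at 669 and 785 CPM. Leaving AE17 SC replicates 6 and 8 out, chosen after the data were seen, left 6 members higher in AE17 IPL than in AE17 SC tumors, at a median of 0.27, against 1.16% of all genes. Leaving out AB1 SC replicates 1 and 6 gave 28 members lower in AB1 IPL tumors, at a median of -0.76, against 10.7% of all genes.

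The interferon genes themselves were barely seen. None of the 20 type I and type III ligand genes had enough reads to be tested, and their summed level was at most 0.684 CPM in any tumor. Ifnb1, the first interferon that most cells make, had at most 2 reads in an AB1 IPL library, 5 in an AB1 SC library, 9 in an AE17 IPL library and 4 in an AE17 SC library. DESeq2, which tested genes below that filter, called 1 of the 20, Ifnz, lower in AE17 SC than in AB1 SC tumors, from at most 5 reads in a library. At this depth other differences in the ligands were not detectable.

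Of the genes of the interferon receptor and its kinases, Ifnar1 ran from 93.1 to 120.4 CPM (median 101) in AB1 IPL and from 98.8 to 127 CPM (median 110.2) in AB1 SC tumors (-0.13 ± 0.07, adjusted p = 0.163), and Ifnar2 ran from 43.5 to 76.8 CPM (median 53.8) and from 49.4 to 63.4 CPM (median 57.4) (-0.06 ± 0.10, adjusted p = 0.702). EdgeR and DESeq2 called neither receptor chain, and limma-voom called Ifnar1 lower. The kinase genes Tyk2 and Jak1 were lower (-0.26 and -0.23), as was Il10rb (-0.31), a chain of the type III receptor. The site effect of Jak1 was higher in AE17 than in AB1 (0.34 ± 0.10, adjusted p = 0.0186). None of these genes was called with lane as a factor. Ifnlr1, the other chain of the type III receptor, had too few reads for the edgeR test. It ran from 0.121 to 1.37 CPM (median 0.482) in AB1 IPL and from 0.0581 to 0.437 CPM (median 0.194) in AB1 SC tumors, and DESeq2 called it higher in AB1 IPL tumors.

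Of 13 genes of nucleic acid sensing and signalling to interferon outside the members, 4 were lower in AB1 IPL tumors: Irf5 (-0.58), Tlr8 (-0.87), Ikbke (-0.44) and Mb21d1, which encodes the DNA sensor cGAS (-0.35). In AE17, 1 of the 13 was higher and 0 lower, and the site effect was higher in AE17 than in AB1 for 6. Beside the edgeR counts of both lists in this paragraph, 10.7% of all genes were lower in AB1 and 2.60% higher in AE17. A higher site effect in AE17 was called for 8.62% of all genes. Of 10 negative regulators, 4 were lower in AB1 IPL tumors: Samhd1, a nucleotide hydrolase (-0.76), Irf2 (-0.47), the phosphatase gene Ptpn2 (-0.40) and the RNA editor gene Adar (-0.21). None of the 10 was called in AE17 by edgeR (3 higher at an unadjusted p under 0.05, 1 with DESeq2 and 3 with limma-voom), and 3 had a higher site effect in AE17. At that unadjusted threshold 13.2% of all genes were higher in AE17, and DESeq2 called 2.21% and limma-voom 14.1% higher. No gene of either list was called with lane as a factor, in AB1, in AE17 or in the difference between the models.

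Of a longer list of 50 other interferon-induced genes, 34 were lower and 1 higher in AB1 IPL tumors (median -0.53), 2 were higher and 0 lower in AE17 IPL tumors (median 0.40), and the site effect was higher in AE17 for 43 (median 0.93). Over all genes, 10.7% were lower and 12.3% higher in AB1, and 2.60% were higher and 3.13% lower in AE17. A higher site effect in AE17 was called for 8.62% of all genes. The AE17 count was near its share. In AE17, 37 were higher at an unadjusted p under 0.05, and DESeq2 called 17 and limma-voom 38 higher, against 13.2%, 2.21% and 14.1% of all genes. With lane as a factor, 1 was lower in AB1 IPL tumors, 0 were higher in AE17 IPL tumors and 2 had a higher site effect in AE17. The shares of all genes in that fit were 1.91%, 0% and 0.37%, and the AB1 count was near its share. The lowest adjusted p values in AB1 were those of Slfn1 (-1.26 ± 0.17, adjusted p = 9.46e-05), Cxcl10, a T cell chemoattractant (-1.21 ± 0.21, adjusted p = 0.000576), Slfn2 (-0.72 ± 0.14, adjusted p = 0.00104) and the peptide transporter gene Tap1 (-0.72 ± 0.14, adjusted p = 0.00117). Between the models, 40 of the 50 were higher and 2 lower in AE17 IPL than in AB1 IPL tumors, and 23 were higher and 11 lower under the skin, beside the shares of all genes given above for the members (31.8% higher and 31.6% lower, and 29.7% and 28.6%). Lane as a factor left 29 higher and 1 lower in the pleural space, and 10 higher and 7 lower under the skin. The shares of all genes were 15.5% and 16.5% in the pleural space, and 18.2% and 15.4% under the skin. Under the skin both counts were near those shares.

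Interferon-gamma, made by T and NK cells, acts through a receptor of its own and induces a partly shared set of genes. In AB1 IPL tumors 14 of 15 tested were lower and 0 higher, with a median of -1.11, among them Cxcl9 (-1.55 ± 0.24, adjusted p = 0.000232), Gbp2 (-1.21 ± 0.21, adjusted p = 0.000605), Gbp5 (-1.46 ± 0.26, adjusted p = 0.000698), Cd274, encoding the checkpoint ligand PD-L1 (-1.34 ± 0.24, adjusted p = 0.000737), and Irf1 (-0.71 ± 0.15, adjusted p = 0.00255). The share of all genes lower there was 10.7%. In AE17, 0 of 15 were called by edgeR, 5 were higher at an unadjusted p under 0.05, and DESeq2 called 2 and limma-voom 4 higher, with a median of 0.27. At that unadjusted threshold 13.2% of all genes were higher, and DESeq2 called 2.21% and limma-voom 14.1% higher. The site effect was higher in AE17 for 12 of 15, with a median of 1.04, against 8.62% of all genes. The fit with lane as a factor left 1 lower in AB1 IPL tumors and 0 that had a higher site effect in AE17, against 1.91% and 0.37% of all genes. Under the skin 8 of 15 were lower and 0 higher in AE17 than in AB1 tumors (median -0.72, Irf1 -1.36 ± 0.14, adjusted p = 1.15e-09), where 24 of the 33 members were higher. The shares of all genes there were 28.6% lower and 29.7% higher. In the pleural space 9 were higher and 1 lower in AE17 (median 0.64), against 31.8% and 31.6% of all genes. When lane was a factor, 6 were lower under the skin, and 1 was higher and 0 lower in the pleural space. In that order the shares of all genes were 15.4%, 15.5% and 16.5%. The interferon-gamma gene Ifng is not analysed here.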

How the data were processed

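RNA-seq read counts per gene were deposited as 1 table for 32 tumors. Per the study's methods and the submitters' processing notes, the authors demultiplexed with bcl2fastq 1.8.4, mapped reads to the mouse genome (named mm11) with HISAT2 2.0.4 and counted reads per gene with SummerizeOverlaps, with no normalization. The strand setting and annotation release are not given in the sources used here. CPM was computed here from the counts with TMM normalization factors. Gene positions, exon lengths and shared 50-base windows came from GENCODE M21 (GRCm38), in which 39495 of 39676 gene identifiers matched without their version, and promoters from RefSeq (GRCm38.p6). Reads that match several genes equally well may be lost or split in the counting.

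Tests were run in R 4.3.3 with edgeR 4.0.16 (filterByExpr, TMM, robust quasi-likelihood F test, two-sided, Benjamini-Hochberg over all genes tested, threshold 0.05). Site comparisons were fitted within each model, and model comparisons and the interaction over all 32 tumors. DESeq2 1.42.0 and limma 3.58.1 (voom with sample weights) were alternatives, beside other size factors, no filter, a replicate block, lane as a factor, single lanes, 1 fit for all mice and leaving out each mouse. The fitting was tested on simulated data. Total counts ran from 15432258 to 20649645. Replicate numbers did not pair the mice. One gene of the signalling list is not reported here. The members and lists were chosen with earlier results of these data known. Of the members, Irf7 and Irf9 and the 12 others with the smallest adjusted p in either site comparison are given with full values, and the rest by counts and ranges or as extremes of their role group. Figures were drawn with matplotlib 3.10.9 in Python 3.11.15.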

Additional observations from a re-analysis of the deposited data

Results flagged for a closer look

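Of 60 groups of 8 tumors examined for a tumor far from the rest, 2 had one, where chance alone gives about 1 in 20. Herc6 in AB1 SC tumors had its lowest level in replicate 6, at 43.9 CPM against 65.9 CPM in the next, a gap of 0.642 of the group's range on the log2 scale and 0.567 on the CPM scale. Irf9 in AE17 IPL tumors had its lowest level in replicate 3, at 110.0 CPM against 129 CPM in the next, a gap of 0.539 of the range on the log2 scale. On the CPM scale it was 0.501, below the critical value, so the second depends on the scale.

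For 13 of the 14 genes given with full values, the site effect (IPL over SC, log2) was higher in AE17 than in AB1 by the interaction test of edgeR. The difference was 1.15 for Irf7, 1.41 for Zbp1, 0.85 for Ddx58, 1.23 for Oasl2, 1.40 for Mx1 and 1.61 for Herc6. It was 1.07 for Parp9, 1.03 for Dtx3l, 1.33 for Parp14, 1.04 for Rtp4, 0.83 for Ifi35, 1.78 for Ifi44 and 1.18 for Xaf1. With lane as a factor, and with the leukocyte marker level as a covariate, 0 of the 33 members passed this test.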

How the results depend on the processing

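The number of members lower in AB1 IPL than in AB1 SC tumors (21) became 0 with lane as a factor, 0 within 1 lane and 0 with the leukocyte marker level as a covariate. The share of all genes called lower there was 10.7% in the main fit, and 1.91%, 0.994% and 3.64% in these fits in that order. The number higher in AE17 IPL than in AE17 SC tumors (3) became 12 with DESeq2, 28 with limma-voom, 1 without the low-count filter, 7 with all 32 mice in 1 fit, 0 with lane as a factor, 0 within 1 lane, 25 with the leukocyte covariate and 6 without AE17 SC replicates 6 and 8. Over all genes, 2.60% were called higher there in the main fit, 2.21% with DESeq2 and 14.1% with limma-voom. The share was 0.763% without the filter and 3.79% with all 32 mice in 1 fit. The number with a higher site effect in AE17 (30) became 0 with lane as a factor and 0 with the leukocyte covariate, and the number higher in AE17 SC than in AB1 SC tumors (24) became 14 with lane as a factor. The number lower there (0) became 1 with limma-voom and 1 without AB1 SC replicates 1 and 6. The leukocyte covariate also turned Irf9 to 0.24 in AB1 and to -0.11 in the difference between the models. The covariate and the pairs of tumors left out were chosen after the data were seen. In AB1 the covariate did not overlap between the sites, so that fit could not cleanly separate leukocyte level from site. The single-lane fits, and the site effects with lane as a factor, rest on 2 AB1 SC and 3 AE17 IPL tumors in the lanes shared by both sites. The cause of the changes in count was not tested. The medians kept their direction in all these fits.

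Leaving out 1 mouse at a time gave 15 to 25 members lower in AB1 IPL tumors, 0 to 15 higher in AE17 IPL tumors, 28 to 32 with a higher site effect in AE17, 21 to 27 higher and 0 to 1 lower in AE17 SC than in AB1 SC tumors, and 33 to 33 higher in AE17 IPL than in AB1 IPL tumors. The AE17 count was 0 without IPL replicate 4, 7 or 8 or SC replicate 5, 1 without IPL replicate 1 or SC replicate 7, 5 without IPL replicate 5, 14 without SC replicate 3 and 15 without SC replicate 1. The share of all genes called higher in AE17 ran from 0.806% without IPL replicate 4 to 6.94% without SC replicate 1. The 1 member lower under the skin appeared without AE17 SC replicate 3.

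With the replicate number as a block, 15 members were lower in AB1 IPL tumors, 2 were higher in AE17 IPL tumors, 30 had a higher site effect in AE17, and 22 and 33 were higher in AE17 than in AB1 tumors under the skin and in the pleural space. In the same order and directions, that fit called 8.08%, 2.21%, 7.99%, 28.9% and 31.5% of all genes. The replicate numbers did not pair the mice: deviations of same-numbered tumors correlated at a mean of -0.12 in AB1 and 0.07 in AE17. Depth limits the 20 interferon ligand genes, 0 of which had enough reads to be tested.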
